A study of Homo sapiens with 16 samples.

Results

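The S100 genes encode small calcium-binding proteins that form dimers, and most of them lie side by side on human chromosome 1. S100A8 and S100A9 together make calprotectin, the abundant antimicrobial protein of neutrophils and monocytes, and S100A12 is their neutrophil companion. S100A10, the partner of annexin A2, and S100A4, S100A6 and S100A11 are used by many cell types, while S100A2, S100A3 and S100A7 (psoriasin) are known mainly from skin and other epithelia. The nucleosomes around the TSSs of these 10 genes were followed in GM12878, a human B-lymphoblastoid line made by Epstein-Barr virus transformation, after stimulation with heat-killed Salmonella typhimurium (HKST). The 10 promoters were taken by gene symbol out of 21857, and all 10 were among the 2801 that were complete in every table. Throughout, broad stands for S100A10, S100A11, S100A4 and S100A6, myeloid for S100A8, S100A9 and S100A12, and epithelial for S100A2, S100A3 and S100A7. These classes come from textbook knowledge, and no RNA was measured in the data used here.

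Cells were harvested at 20, 40 and 60 min post-HKST or left untreated, and the nuclei of each were digested with 20 U (light) or 200 U (heavy) of MNase. Every group is the same cell line grown in the same way, so that a myeloid or epithelial gene is always seen here in a B cell. Each of the 8 tables pools 2 replicates, so there is 1 value for each time and digest and no spread between replicates. Errors are exact 95% intervals of the recovered fragment numbers, which cover counting error only, and a change is called beyond counting error where its interval leaves out 0. A difference between times cannot be told apart from a difference in digestion between tubes, and all 3 HKST times share 1 untreated control. The tables held 9.43 to 10.5 M light and 3.27 to 7.04 M heavy fragments of 140 to 200 bp. Each value counts the fragments centered within 60 bp, in rpm, that is, relative to the table's depth. The log2 ratio of light over heavy measures MNase sensitivity, and a positive ratio means that a nucleosome was released more readily by light digestion. The cell type was checked in the nucleosome-free region (NFR), the gap at the TSS of an open promoter, by log2 depth relative to the 2 kb in untreated cells. B cell marker promoters had a median NFR depth of -1.56, with 4 of 6 at -1 or below, and the myeloid markers one of 0.46, with 0 of 8. Of all 16218 promoters with a value in the same set 62.7% were that low, with a median of -1.86, so that the B cell markers were near an ordinary promoter and the myeloid markers well above it.

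An active promoter of the usual kind has an NFR at its start, flanked by the -1 nucleosome upstream and the +1 nucleosome downstream, and is often rich in CpG. To show what the promoters offer to such an arrangement, the 150 bases before the start of the MANE Select transcript, the agreed standard transcript of a gene, are printed for 6 genes. Capitals mark matches on either strand to the core promoter box TATAAA, the GC box GGGCGG, the AP-1 letters (TGA and TCA with any 1 base between), the C/EBP-like letters TTGCNNAA or the NF-kB-like letters GGGANNNNCC.
S100A10: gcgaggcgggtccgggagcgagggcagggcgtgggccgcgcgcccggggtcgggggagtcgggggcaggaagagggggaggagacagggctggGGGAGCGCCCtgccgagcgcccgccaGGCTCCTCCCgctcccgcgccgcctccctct
S100A11: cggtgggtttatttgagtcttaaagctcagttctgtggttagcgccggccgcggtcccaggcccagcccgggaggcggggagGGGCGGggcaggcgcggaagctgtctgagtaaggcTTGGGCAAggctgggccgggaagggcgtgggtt
S100A8: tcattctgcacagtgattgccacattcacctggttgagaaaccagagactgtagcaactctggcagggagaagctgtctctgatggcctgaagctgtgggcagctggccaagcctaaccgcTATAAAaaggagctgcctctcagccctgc
S100A9: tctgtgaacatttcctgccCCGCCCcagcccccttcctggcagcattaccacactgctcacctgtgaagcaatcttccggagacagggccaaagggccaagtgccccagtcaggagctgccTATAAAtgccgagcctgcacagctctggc
S100A12: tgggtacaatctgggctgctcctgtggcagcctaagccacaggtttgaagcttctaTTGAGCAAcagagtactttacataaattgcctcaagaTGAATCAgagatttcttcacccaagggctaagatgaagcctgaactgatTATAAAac
S100A7: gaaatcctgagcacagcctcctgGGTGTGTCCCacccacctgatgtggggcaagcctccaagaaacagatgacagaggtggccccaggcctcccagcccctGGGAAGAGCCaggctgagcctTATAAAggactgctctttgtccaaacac

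These stretches come from GRCh37, the same build as hg19, on the strand of each gene, and none overlaps an annotated exon. S100A10 lies at chr1:151966336-151966485, S100A11 at chr1:152009481-152009630, S100A8 at chr1:153363550-153363699, S100A12 at chr1:153348098-153348247 and S100A7 at chr1:153433128-153433277, all on the minus strand. S100A9 lies at chr1:153330180-153330329 on the plus strand. TATAAA was found at all 3 myeloid members, at 1 of 4 broad members (S100A4) and at 1 of 3 epithelial members (S100A7), against 7.10% of 2479 promoters with such a start. CpG ran the other way. The stretch held 19 CpG at S100A10, 17 at S100A6, 12 at S100A11 and 4 at S100A4, against 1 at S100A8, 3 at S100A9, 0 at S100A12, 4 at S100A2, 2 at S100A3 and 0 at S100A7, and the median promoter had 12. GGGCGG was present at 2 broad, 1 myeloid and 1 epithelial member, against 51.4% of promoters, and GGGANNNNCC at 2, 0 and 1 of them, against 17.1%. The AP-1 letters occurred at S100A12 and S100A2 (3.51% of promoters) and the C/EBP-like letters at S100A11 and S100A12 (4.03%).

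In untreated cells all 10 promoters carried more nucleosome fragments than the median promoter. Light plus heavy signal over the 2 kb in untreated cells was 2.38 rpm at S100A10, 2.56 at S100A11, 3.82 at S100A9, 3.97 at S100A2, 4.01 at S100A6, 4.46 at S100A8, 4.54 at S100A4, 5.01 at S100A3, 5.03 at S100A12 and 5.64 at S100A7, against a median of 2.33 over all promoters. The members lay between 2.11 (S100A10) and 4.93 rpm (S100A12) at 60 min, when the median of all promoters was 2.35. The broad members S100A10 and S100A11 were thus the emptiest of the family in untreated cells, and the epithelial S100A7 was the fullest. Between 133 (S100A11) and 195 (S100A7) of the 200 positions of a promoter had a value, and positions without one were left out.

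**Figure D1:**
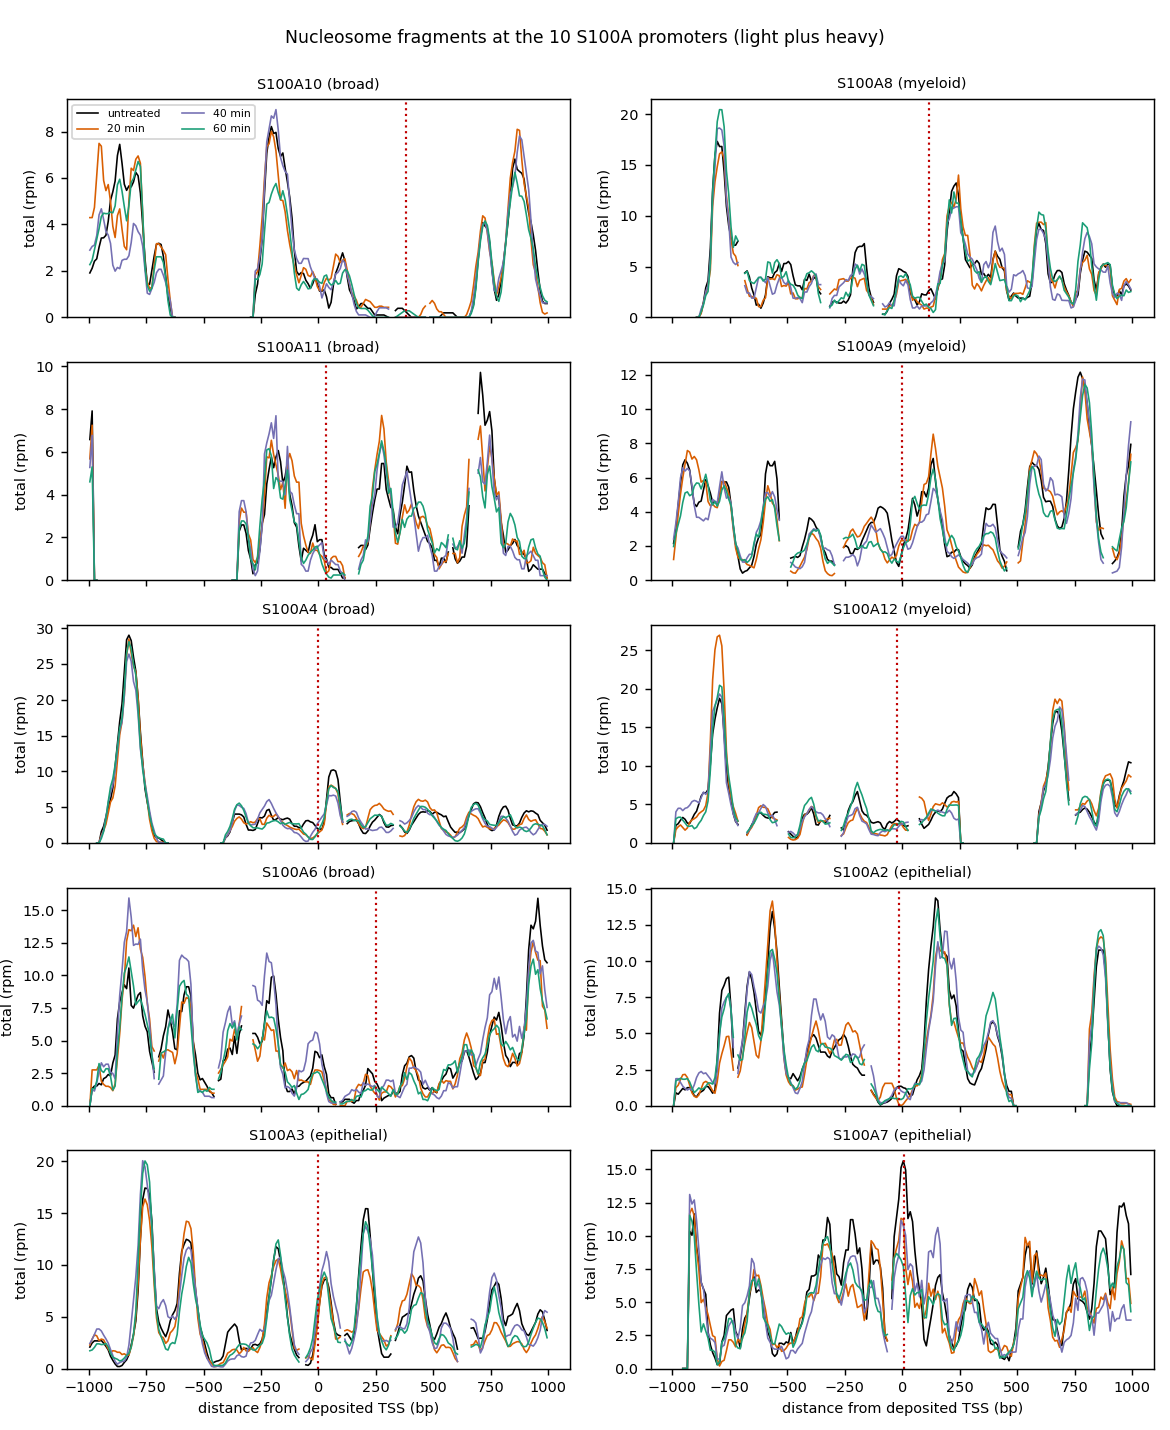
Total nucleosome fragments (light plus heavy, rpm) along the 2 kb around each of the 10 deposited TSSs, with 1 line per time; the dotted red line marks the start of the MANE Select transcript and gaps are positions without a value. The lines of the 4 times are similar in shape but part in places, as at the S100A7 start (15.6 rpm untreated, 7.69 rpm at 60 min). At -795 bp of S100A12 they part as well (18.8 rpm untreated, 27.0 rpm at 20 min). The highest peak of S100A4 stands at -825 bp at all 4 times, and S100A10 is nearly empty around its MANE Select start.

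The total profiles of the family stayed similar in shape after HKST, but the highest position did not always stay in place. At S100A7 it was 5 bp in untreated cells and -915, -925 and -925 bp at 20, 40 and 60 min. At S100A6 it was 955 bp in untreated cells and -805, -825 and -825 bp after HKST. It also moved at S100A10, at S100A11 and, at 20 min, at S100A2. Across positions, Pearson's r between a promoter's HKST and untreated total profiles was lowest at S100A7 at 40 min (0.75) and highest at S100A4 at 60 min (0.98); neighboring positions share fragments, so r is a description. The sharpest nucleosome of the family stood 825 bp upstream of S100A4, a gene known for its part in cell motility. It measured 29.0 rpm before stimulation, then 28.5, 26.4 and 28.1 rpm at the 3 HKST times. This peak was 6.39 times the promoter's mean in untreated cells, and its height exceeded the maximum of 97.8% of promoters. It was better recovered by heavy digestion, with 10.6 rpm in the light and 18.4 rpm in the heavy digest of untreated cells and log2 ratios of -0.78, -0.92, -0.99 and -0.94 over the 4 times. S100A3, which lies next to S100A4, had its highest nucleosome at -755 bp in untreated cells, with 17.4, 16.4, 19.5 and 20.0 rpm there over the 4 times. At S100A8 the highest position, -805 bp, held 17.3, 14.8, 18.6 and 19.3 rpm.

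Between members, the untreated profiles of S100A4 and S100A12 had an r of 0.56, those of S100A12 and S100A8 of 0.48, and those of S100A8 and S100A9, whose proteins form calprotectin together, of -0.0070. In the whole shared set, the untreated profiles most like that of S100A6 were those of TRIM33 (r = 0.75) and CELF3 (r = 0.75), out of 2497 promoters compared. For S100A12 these were ARHGEF10L (0.65) and SH3PXD2A (0.61) out of 671, and for S100A7 SPOCK2 (0.60) and APBB1IP (0.54) out of 2522. Each r is a likeness in shape over 152 to 193 positions of 1 promoter and nothing more.

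At the deposited TSSs the NFR was shallow in all but 1 of the 10 genes. NFR depth was taken as log2 of the mean total from -100 to 50 bp over that of the 2 kb, so that a deeper gap is more negative. In untreated cells it was -0.70 at S100A10, -0.64 at S100A11, -0.49 at S100A4 and -0.65 at S100A6 among the broad members. The myeloid members had -0.71 at S100A8, -0.40 at S100A9 and -0.99 at S100A12, and the epithelial members -2.23 at S100A2, -0.34 at S100A3 and 0.79 at S100A7. A depth of -1 or less was found at 1 of 10 members (S100A2), against 60.5% of all promoters, whose median was -1.76. The count was 2 of 10 at 20 min (62.1% of promoters), 3 at 40 min (60.9%) and 4 at 60 min (61.8%). By this measure broad (median -0.64) and myeloid members (median -0.71) were alike in value. The deepest gap of the family was that of S100A2, a p53-family target of basal epithelial cells. It rested on 14 fragments in the window, and 41.9% of all promoters had a deeper one.

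That picture depended on where the TSS was placed. Comparison with the GENCODE annotation showed that the deposited TSS lay 379 bp upstream of the MANE Select start at S100A10, 250 bp at S100A6, 115 bp at S100A8 and 31 bp at S100A11, and within 22 bp at the other 6 genes. At S100A6 the deposited TSS itself lay 3 bp from the start of another annotated transcript. The 150 bases before its MANE Select start overlap an annotated S100A6 exon. Windows were therefore also placed on the MANE Select starts, a choice made after the profiles were seen. The recentered NFR depth in untreated cells became -3.10 at S100A10, -1.56 at S100A6, -0.84 at S100A11 and -0.87 at S100A8, against -0.49 at S100A4, -0.40 at S100A9, -0.97 at S100A12, -2.29 at S100A2, -0.34 at S100A3 and 0.80 at S100A7. The median was now -1.20 for the broad, -0.87 for the myeloid and -0.34 for the epithelial members, and -2.12 over the 2311 promoters with a value. A depth of -1 or less was reached by 3 of 10 members in untreated cells (67.8% of promoters) and by 6 of 10 at 20 min (68.7%), 40 min (67.9%) and 60 min (69.2%). In untreated cells the 3 were S100A10, S100A6 and S100A2. Of the broad members S100A10 and S100A6 thus passed this cut, though the gap of S100A6 was shallower than that of the median promoter. S100A11 and S100A4 had values in the range of the myeloid members.

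**Figure D2:**
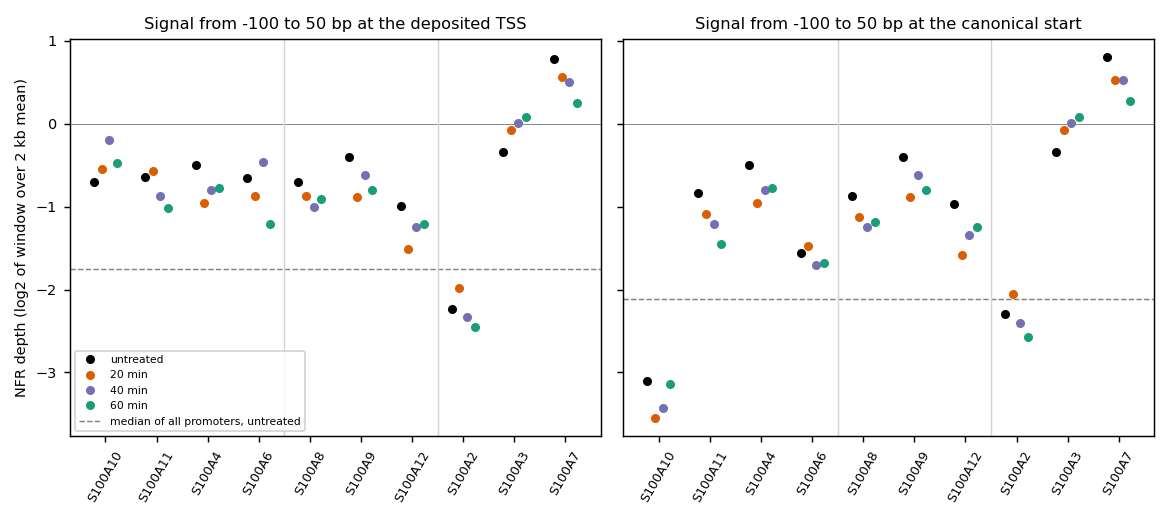
NFR depth (log2 of the mean total from -100 to 50 bp over the 2 kb mean) of the 10 members at the 4 times, with windows at the deposited TSS on the left and at the MANE Select start on the right; vertical lines separate broad, myeloid and epithelial members. S100A10 stands near -0.70 on the left and at -3.10 on the right in untreated cells, while S100A7 is above 0 in both.

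S100A10 had by far the longest empty stretch of the family. Total signal stayed at or below 1 rpm, or had no value, for 540 bp, from 240 bp before to 300 bp after the MANE Select start in untreated cells, and for 520, 530 and 520 bp at 20, 40 and 60 min. Only 2, 1, 0 and 2 fragments were centered between -100 and 50 bp of that start at the 4 times. The next longest runs in untreated cells were 150 bp at S100A6 and 140 bp at S100A11, against 20 bp at S100A4, 60 bp at S100A8, 40 bp at S100A9, 130 bp at S100A12, 100 bp at S100A2, 50 bp at S100A3 and 10 bp at S100A7. Positions without a value count as part of a run. They made up the whole run at S100A4 (2 positions) and S100A7 (1), and 11 of 13 at S100A12, 3 of 4 at S100A9, 3 of 6 at S100A8, 2 of 5 at S100A3 and 5 of 14 at S100A11. A run of 500 bp or more was found at 21.6% of promoters, and the median was 270 bp. The empty stretch of S100A10 has a GC content of 74.3%, and the libraries had been captured with hybridization probes. The part of base composition and of probe coverage in its low signal was not tested.

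S100A7 was the opposite case, with a nucleosome over the start itself. In untreated cells the highest position of the whole promoter was 5 bp downstream of the deposited TSS, at 15.6 rpm, and the same position held 11.2 rpm at 20 min, 10.8 at 40 min and 7.69 at 60 min. Between -100 and 50 bp, 157, 104, 93 and 112 fragments were recovered over the 4 times, which corresponds to 9.81, 7.25, 6.67 and 5.72 rpm. The loss was beyond counting error in the light digest at 20 min (log2 change -0.67, 95% interval -1.19 to -0.18) and 60 min (-0.53, -1.06 to -0.061), and in the heavy digest at 40 min (-0.68, -1.40 to -0.069) and 60 min (-0.91, -1.47 to -0.39). Such a fall was seen at 2.9% of promoters in the light digest at 20 min and 2.95% at 60 min, and in the heavy digest at 1.09% at 40 min and 2.31% at 60 min. The light change at 40 min was -0.35 (-0.83 to 0.14) and the heavy change at 20 min -0.29 (-0.87 to 0.25). S100A4 was the other member with such a fall, in the light digest at 60 min (-0.97, -2.06 to -0.27). NFR depth was 0.79, 0.57, 0.50 and 0.25 at the 4 times, so that the start of S100A7 remained fuller than its surroundings throughout. S100A7A, a copy of this gene nearby, matches 192 of the 200 bases upstream of the S100A7 TSS (96.0%). Reads that fell on both had been discarded by the authors, so these values are uncertain.

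At S100A3 NFR depth was -0.34, -0.080, 0.0081 and 0.084 at the 4 times, with 59, 59, 58 and 83 fragments. A depth below that of untreated cells at all 3 HKST times was found at 5 of 10 members, the 3 myeloid members, S100A4 and S100A7, against 25.3% of promoters. The values were S100A8 -0.71, -0.87, -1.0 and -0.90, S100A9 -0.40, -0.88, -0.62 and -0.80, and S100A12 -0.99, -1.51, -1.24 and -1.21, and S100A4 -0.49, -0.96, -0.80 and -0.77 over the 4 times. Those of the 3 myeloid members rest on 28 to 50 fragments per window, and no interval was calculated for a depth. Most related S100 genes had no deep NFR by the same measure. Of the other S100 genes, 2 of 10 had a depth of -1 or less, and of the S100-fused epidermal genes such as FLG (filaggrin) 0 of 6, in the larger set of 16260 promoters that were complete in untreated cells and at 40 and 60 min. The partners and receptors of S100 proteins, with 6 of 10, were near the 62.7% of all promoters in that set.

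In untreated cells light over heavy just upstream of the TSS was below 0 in value at 8 of 10 members. Over the -1 window (-200 to 0 bp) the log2 ratio was -0.78 at S100A10, 0.14 at S100A11, -0.62 at S100A4 and -0.27 at S100A6. It was -0.54 at S100A8, -0.36 at S100A9 and -0.39 at S100A12, and 0.18 at S100A2, -0.68 at S100A3 and -0.70 at S100A7. The median was -0.44 for the broad, -0.39 for the myeloid and -0.68 for the epithelial members, and -0.47 over all 10, against 0.12 over all promoters. The interval lay below 0 at 3 of 10 members, S100A10 (-1.46 to -0.19), S100A3 (-1.32 to -0.11) and S100A7 (-1.17 to -0.26), against 11.5% of promoters, and above 0 at 0 of 10, against 10.2%. At 20 min S100A3 and S100A7 had intervals below 0 (10.5% of promoters) and at 40 min S100A3 did (8.41%), with 0 of 10 above 0 at both times (13.6 and 8.61%). Light fragments in this window numbered 16 (S100A2) to 89 (S100A7), and heavy fragments 7 to 77. The 3 classes overlapped, and the differences between their medians were small beside the intervals of single genes.

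**Figure D3:**
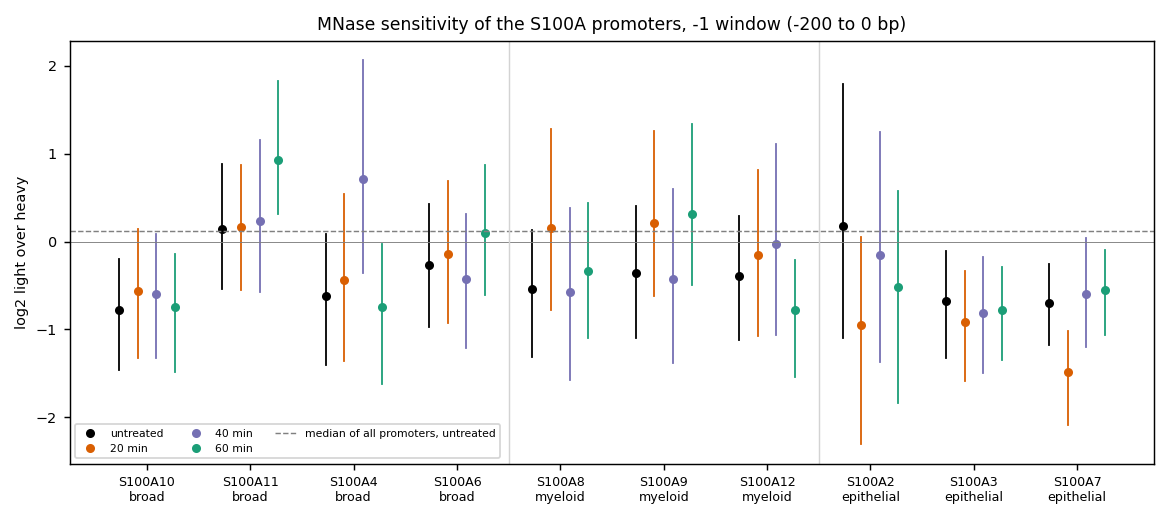
Log2 ratio of light over heavy in the -1 window (-200 to 0 bp) for each member at the 4 times, as points with exact 95% counting intervals; the dashed line is the median of all promoters in untreated cells. Most intervals overlap within a gene, and S100A7 at 20 min (-1.48) and S100A4 at 40 min (0.72) stand apart from their own untreated values of -0.70 and -0.62.

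At 20 min post-HKST S100A7 was the member whose -1 window changed beyond counting error. The change in log2 ratio against untreated cells was 0.22 at S100A10, 0.025 at S100A11, 0.18 at S100A4 and 0.13 at S100A6. It was 0.70 at S100A8, 0.57 at S100A9 and 0.23 at S100A12, against -1.13 at S100A2, -0.24 at S100A3 and -0.78 at S100A7. All 7 broad and myeloid values were above 0 and all 3 epithelial values below it, yet only S100A7 was beyond counting error (-1.55 to -0.13), and with a window from -250 to -100 bp 0 of 10 were. This 1 fall compares with 2.02% of promoters that fell and 2.06% that rose in the same test. At S100A7 light signal in the window was 1.73 rpm at 20 min, against 2.89 rpm in untreated cells (log2 change -0.70, -1.25 to -0.25), while heavy signal was 5.04 rpm, against 4.77 rpm. The median over the members was 0.15, and that over all promoters 0.14.

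At 40 min S100A4 alone passed counting error, with a rise of 1.34 (0.025 to 2.92). It rested on 8 heavy fragments at 40 min, against 30 in untreated cells, and on 39 light fragments, against 36. With ratios scaled to the summed fragments of all promoters in the window, 0 of 10 members passed at 40 min. A rise was found at 1.59% and a fall at 1.8% of promoters. The other members lay between -0.33 (S100A2) and 0.35 (S100A12), and the median was 0.035, against 0.092 over all promoters. At 60 min 0 of 10 members passed, against 2.6% of promoters that rose and 2.35% that fell. The values then ran between -0.70 at S100A2 and 0.78 at S100A11, with a median of 0.095, against 0.067 over all promoters. At that time the ratio itself was above 0 beyond counting error at S100A11 (0.92, 0.31 to 1.83, with 18.9% of promoters) and below it at 5 of 10 members, S100A10, S100A4, S100A12, S100A3 and S100A7 (13.8% of promoters).

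With the windows at the MANE Select starts, S100A7 fell at 20 min (-0.75, -1.48 to -0.096; 1.77% of promoters), and S100A4 (1.34) and S100A6 (1.76, 0.021 to 4.63) rose at 40 min (1.26% of promoters). The S100A6 value rests on 17 light and 5 heavy fragments, against 6 and 13 in untreated cells. S100A6, known as calcyclin, is a cell-cycle-associated member of the family. S100A10 could not be judged there, since its recentered window held 1 to 5 light and 1 to 3 heavy fragments. At the +1 window (50 to 250 bp of the deposited TSS), which at S100A6 is the same stretch, S100A6 at 40 min was the only call. Rises were found at 3.16, 2.14 and 2.85% of promoters at 20, 40 and 60 min, and falls at 2.79, 1.48 and 3.26%.

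Over the whole 2 kb, where 259 to 779 light and 77 to 650 heavy fragments stand behind each value, most of the family was MNase-resistant at every time. The interval of the ratio lay below 0 at 6, 8, 6 and 8 of 10 members in untreated cells and at 20, 40 and 60 min, against 28, 28.3, 26.2 and 32.4% of promoters. It lay below 0 at all 4 times at 6 of 10 members, against 18.4% of promoters. The 6 were S100A4 and S100A6 of the broad, S100A8 of the myeloid and all 3 epithelial members. S100A3, best known from the hair cuticle, was the lowest in untreated cells and at 20 and 40 min, with -0.86, -0.77, -0.87 and -0.84 at the 4 times and percentiles of 3.63, 4.31, 1.80 and 4.92 among all promoters. S100A4 had -0.73, -0.45, -0.52 and -0.85, the last of which was the lowest at 60 min. The ratio of S100A11, the partner of annexin A1, was 0.22, 0.37, 0.40 and 0.34, and its interval lay above 0 at 20, 40 and 60 min. In untreated cells S100A12 was the member with an interval above 0 (0.36, 0.18 to 0.58). Such intervals were found at 1 of 10 members at each time, against 34.6, 37.4, 30.5 and 39.1% of promoters. The ratio falls with GC content over all promoters (r = -0.61 in untreated cells, across 2782 promoters). The promoters in the same decile of GC content as S100A3 had a median of -0.0090, those of S100A4 of 0.040 and those of S100A11 of 0.14.

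**Figure D4:**
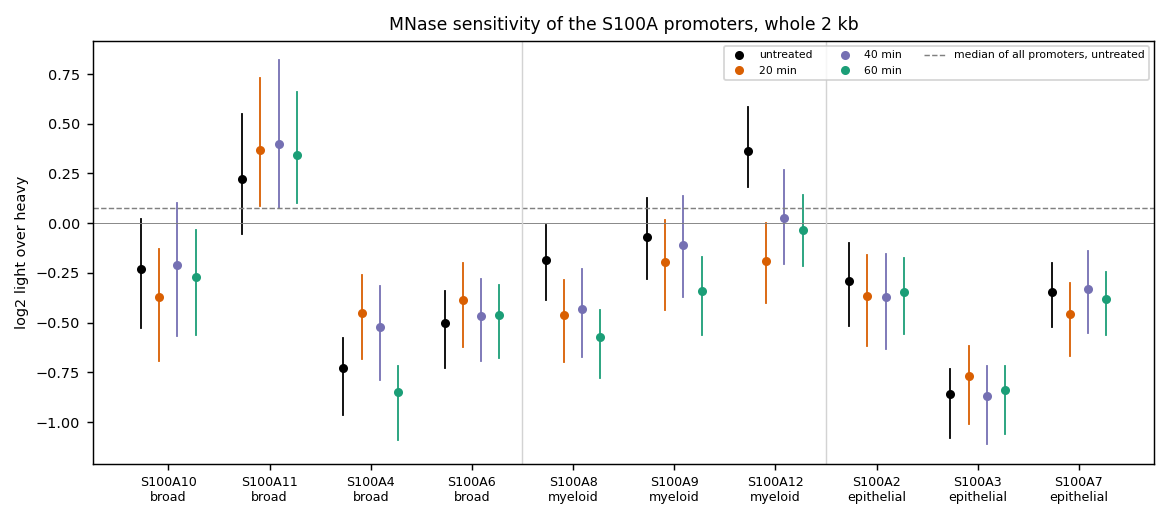
Log2 ratio of light over heavy over the whole 2 kb for each member at the 4 times, with exact 95% counting intervals; the dashed line is the untreated median of all promoters (0.074). S100A3 lies lowest at all times except 60 min, when S100A4 (-0.85) is just below it (-0.84), S100A11 stays above 0, and S100A12 is between -0.19 and 0.025 after HKST, against 0.36 in untreated cells.

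Over the 2 kb, falls beyond counting error after HKST were found at the myeloid members alone. The 2 kb ratio of S100A12 was -0.19, 0.025 and -0.034 at the 3 HKST times, against 0.36 in untreated cells, and the change was beyond counting error each time (-0.55, -0.87 to -0.30; -0.34, -0.67 to -0.040; -0.40, -0.69 to -0.15). S100A8 fell at 20 min (-0.28, -0.58 to -0.015) and 60 min (-0.39, -0.66 to -0.15), and S100A9 at 60 min (-0.27, -0.57 to -0.0036). At 40 min the changes were -0.24 (-0.55 to 0.038) at S100A8 and -0.040 (-0.37 to 0.29) at S100A9. The single rise was S100A4 at 20 min (0.28, 0.0068 to 0.58). Of the 10 members 2, 1 and 3 thus fell at 20, 40 and 60 min, against 9.42, 5.82 and 10.5% of promoters, and 1, 0 and 0 rose, against 10.5, 6.4 and 8.41%. No broad or epithelial member fell. The difference between the classes was not tested, since each class has 3 or 4 genes and no replicate.

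The digests contributed to these falls in different parts. At S100A12 at 20 min the heavy rise (0.37) was larger than the light loss (-0.18), while at S100A9 at 60 min the light digest was lower by a log2 change of -0.33 and the heavy digest by -0.055. Over the 2 kb the light signal alone was below untreated beyond counting error at all 3 HKST times at 4 of 10 members, S100A8, S100A9, S100A12 and S100A7, against 2.91% of promoters. These 4 genes lie near each other on chromosome 1, between the deposited TSSs at 153330330 (S100A9) and 153433137 (S100A7). S100A7A and S100A7L2 (153412503) lie among them, and S100A7L2 was not complete in every table and has no value here. At S100A12 the light log2 changes were -0.18, -0.22 and -0.21 at 20, 40 and 60 min, at S100A8 -0.25, -0.17 and -0.20, at S100A9 -0.19, -0.18 and -0.33 and at S100A7 -0.27, -0.25 and -0.25. In the heavy digest S100A12 rose at 20 min (0.37, 0.15 to 0.63, 8.63% of promoters) and S100A8 at 60 min (0.18, 0.00064 to 0.38, 7.87%). S100A7 fell in the heavy digest at 40 min (-0.27) and 60 min (-0.21). Its ratio therefore did not pass at any time (-0.11, 0.016 and -0.037). Heavy falls were also found at S100A4 at 20 min (-0.22) and 40 min (-0.24), and at S100A3 at 20 min (-0.22) and 60 min (-0.16). Such falls were found at 10.2, 4.28 and 9.42% of promoters at 20, 40 and 60 min. The 2 kb ratio of S100A7A, the copy, which lies between S100A8 and S100A7, changed by -0.070, 0.097 and -0.11, with no interval leaving out 0. No value of the light digest alone is given for it.

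Cutting the 2 kb into 4 stretches of 500 bp, a step added after the values above were seen, placed the S100A12 fall far upstream of its start. From -1000 to -500 bp the ratio was -0.45, -0.10 and -0.11 at the 3 HKST times, against 0.82 in untreated cells. The changes were -1.27 (-1.84 to -0.81), -0.92 (-1.51 to -0.40) and -0.93 (-1.47 to -0.47). Light fragments there numbered 212, 204 and 194 at the 3 HKST times, against 257 in untreated cells, and heavy fragments 116, 76 and 147, against 75. Relative to depth, light signal was 2.83, 3.02 and 2.69 rpm, against 3.68 rpm in untreated cells. Heavy signal was 3.92, 3.26 and 2.91 rpm, against 2.03 rpm. In the other 3 stretches of S100A12 the 9 changes lay between -0.53 and 0.24 and none passed. A fall in this stretch at all 3 times, which share their untreated control, was found at 0.816% of promoters. The interval lay below 0 in this stretch at 6.17, 4 and 5.91% of promoters at 20, 40 and 60 min. Among the 120 changes of the 10 members, 7 intervals lay below 0, against 4.6% over all promoters, and 0 above it, against 4.24%, so that the count of falls itself was near the background. The others were S100A8 at 60 min from 0 to 500 bp (-0.78, -1.33 to -0.34; 5.53% of promoters) and from 500 to 1000 bp (-0.60; 6.72%), S100A10 at 20 min from -1000 to -500 bp (-0.96, -1.74 to -0.34; 6.17%) and S100A7 at 20 min from -500 to 0 bp (-0.47; 3.01%).

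**Figure D5:**
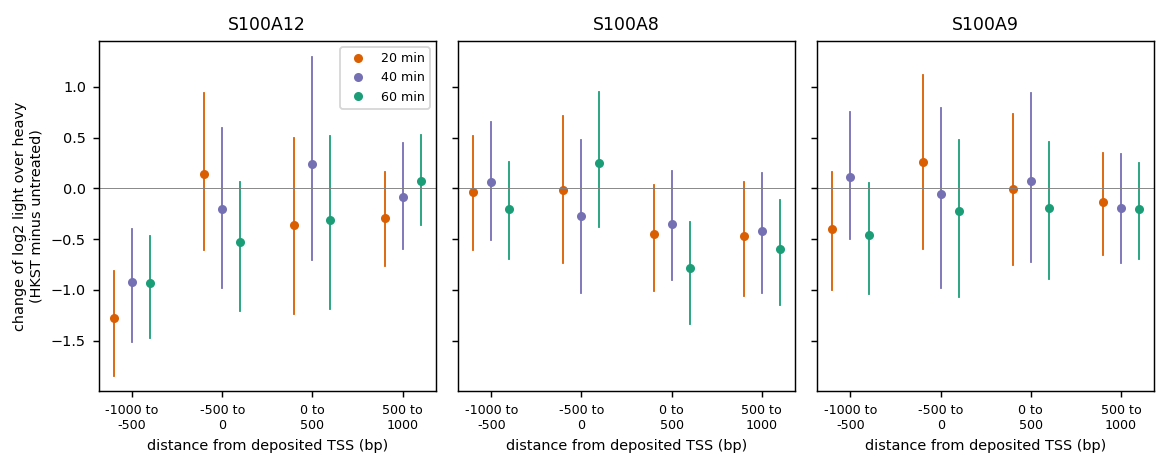
Change of log2 light over heavy (HKST minus untreated) in 4 stretches of 500 bp at the 3 myeloid members, with exact 95% counting intervals. At S100A12 the 3 changes from -1000 to -500 bp (-1.27, -0.92 and -0.93) lie apart from those of the other stretches, and at S100A8 the lowest values are downstream of the TSS at 60 min.

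The S100A12 stretch holds the nucleosome that was the highest of the promoter at all 4 times. Its center at -795 bp held 7.70 rpm in the light digest at 20 min, against 11.1 rpm in untreated cells, and 19.3 rpm in the heavy digest, against 7.72 rpm. At 40 min the light and heavy values were 8.65 and 10.7 rpm, and at 60 min 9.47 and 11.01 rpm. Its log2 ratio was 0.51 in untreated cells and -1.31, -0.30 and -0.21 at 20, 40 and 60 min. These are values of 1 position, and no interval was calculated for them. It lies between S100A12 and S100A8, and no GENCODE exon overlaps it. How much of the change in the stretch lies on this nucleosome was not tested. The 147 bases around its center, at chr1:153348797-153348943 on the minus strand, are given because it was the highest of the promoter. They hold no match to the motifs above.
S100A12 nucleosome: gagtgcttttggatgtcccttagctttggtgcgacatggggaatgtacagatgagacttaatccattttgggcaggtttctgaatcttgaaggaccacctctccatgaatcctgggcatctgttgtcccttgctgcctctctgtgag

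GC content moved with the change in ratio over all promoters (r = 0.45, 0.35 and 0.24 at 20, 40 and 60 min, across 2782 promoters), and the decile of promoters with the lowest GC content had medians of -0.34, -0.23 and -0.24. S100A12 has the lowest GC content of the family, 47.8%, and the decile it belongs to had medians of -0.017, -0.0092 and 0.00037. Minus these medians, an adjustment added after the data were seen, S100A12 changed by -0.54, -0.33 and -0.40, S100A8 by -0.31, -0.24 and -0.45, and S100A9 by -0.16, -0.038 and -0.34. S100A4 at 20 min changed by 0.19. The decile of S100A12 runs from 47.2 to 50.35% GC, and the next lower decile had medians of -0.20, -0.13 and -0.13. The adjustment thus depends on where the deciles are cut, and the part of GC content in these changes was not tested.

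The promoters beside the family show where along the chromosome such changes lay. Between S100A11 and S100A9 lie 37 promoters, chiefly of epidermal genes (filaggrins, late cornified envelope and SPRR proteins). Their 2 kb change was below 0 at 34, 24 and 35 of 37 at 20, 40 and 60 min, against 44.6, 48.6 and 49.3% of all promoters. The medians of the block were -0.23, -0.14 and -0.16. Falls beyond counting error were found at 11, 7 and 10 of them, against 9.42, 5.82 and 10.5% of all promoters. There were 0 rises, against 10.5, 6.4 and 8.41%. Their median GC content was 45.1%, and minus the medians of their GC deciles they were -0.11, -0.017 and -0.086. S100A9, S100A12 and S100A8 lie just beyond this block. The promoters directly before S100A9, PGLYRP3 and PGLYRP4, changed by 0.019 and 0.0011 at 20 min and by 0.036 and -0.12 at 60 min. None of these was beyond counting error, and whether the falls are continuous along the chromosome was not tested. The ratio of the members farther on did not fall beyond counting error, but S100A13, beyond them, fell at 60 min (-0.33) and S100A16 rose at 20 min (0.35). S100A6, S100A4, S100A3 and S100A2 changed by 0.12, 0.28, 0.092 and -0.077 at 20 min, and by 0.042, -0.12, 0.020 and -0.057 at 60 min. In the -1 window CRNN (cornulin, an S100-fused gene) fell at 20 min (-0.80, -1.47 to -0.18) and 60 min (-0.70, -1.33 to -0.12). These were the calls among 6 other S100, 6 S100-fused and 3 partner promoters complete in every table. The largest rises in value among those with at least 10 fragments were not beyond counting error: 1.52 (-1.66 to 7.93) at CACYBP, the calcyclin-binding protein, and 0.96 (-0.40 to 2.67) at S100A1 at 20 min, 0.73 at S100A16 and 0.72 at CACYBP at 40 min, and 0.59 at S100A5 and 0.49 at S100A14 at 60 min. RPTN at 20 min (-0.67) and FLG2 at 40 and 60 min (-0.80 and -0.82) were lower in value without passing, as was CRNN at 40 min (-0.56).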

How the data were processed

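Formaldehyde-fixed nuclei of GM12878 cells were digested with MNase, and promoter fragments were captured by hybridization. Per the labels and the study's methods, the authors aligned read pairs to hg19 with Bowtie2 (2.2.2 in the submitters' processing notes), discarded non-unique reads, pooled both replicates, and deposited fragment centers as RPM in 60 bp windows every 10 bp over 2 kb. The tables ended at different promoters, which left 2801 promoters, and 9.90% of positions had no value. The unit of 1 fragment was read from the value steps (100% of low values within 0.05 of a step), and fragment numbers in a window were recovered from the sums. Ratios are log2((light + 0.122)/(heavy + 0.122)) rpm, and promoters with no fragments in either digest were left out. Intervals are exact conditional binomial and Fisher intervals without that pseudocount, tested on simulated data. No p-values were calculated. Python 3.11.15, numpy 2.4.6, scipy 1.17.1 and matplotlib 3.10.9 were used. All 10 members are described; related genes are the largest rises and falls in the -1 window with at least 10 fragments. The members and lists were chosen with earlier results of these data known. Alternatives covered the pseudocount, scaling, windows, digest, TSS and GC content.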

Additional observations from a re-analysis of the deposited data

How the results depend on the processing

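Under 6 alternatives the median change of the 10 members ran between -0.095 and 0.18 at 20 min. It ran between -0.22 and 0.11 at 40 min and between -0.047 and 0.11 at 60 min. Its sign thus depended on the setting at every time. The alternatives included the whole 2 kb in place of the -1 window, which gave the lowest values at 20 and 60 min. With a window from -250 to -100 bp the median was -0.082 at 20 min and -0.020 at 60 min. The untreated medians stayed below 0 in all classes, between -0.75 and -0.24 (broad), -0.51 and -0.049 (myeloid) and -0.81 and -0.35 (epithelial). The epithelial value of -0.35 is that of the whole 2 kb. The number of members beyond counting error was 0 at 20 min with a window from -250 to -100 bp, and 3 at 20 min and 3 at 60 min over the 2 kb. At 40 min it was 0 when scaled by summed fragments and 2 with windows at the MANE Select start. The broad NFR median was -0.36 with a window from -150 to 0 bp, -0.90 in the light digest and -1.20 at the MANE Select start, and the epithelial median was -1.0 with the window from -150 to 0 bp. For the moved values the cause was not tested. The 2 kb window, the MANE Select start and the GC adjustment were chosen after seeing the data. No paired analysis was possible because each table pools both replicates, and for the same reason no replicate could be left out. Counting intervals therefore set a lower limit on the error.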
